A study of Mus musculus with 4 samples.

Results

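The proteasome genes examined here are the genes whose symbols start with Psma, Psmb, Psmc, Psmd or Psme and a digit, without the immunoproteasome genes Psmb8, Psmb9 and Psmb10. They were found among probe sets that name exactly 1 gene, and each gene was read on its brightest probe set. The rule took 41 of the 18193 genes on the array, read by 87 of 45101 probe sets. Of the 41 genes, 39 lay past the level filter (an intensity of at least 20.9, the median of all values, on 1 or more arrays), as did 13192 of all genes. The 39 include all 14 genes of the constitutive core particle (Psma1 to Psma7 and Psmb1 to Psmb7) and all 17 listed genes of the regulatory particle (9 of its base and 8 of its lid). They also include the assembly chaperones Psmd5, Psmd9 and Psmd10 and the activators Psme1, Psme3 and Psme4. Psme2 was read only together with Psme2b and is therefore not among them. Psmc3ip and Psme3ip1, which encode partner proteins and not subunits, were taken by the spelling of the rule and are kept apart. The tissue-restricted subunit genes Psma8 and Psmb11 had intensities of 6.04 to 15.6 on the arrays, under the filter, and were not tested.

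The samples were mouse intestinal organoids with floxed Apc alleles (Apc fl/fl), 3-dimensional epithelial cultures grown in Matrigel. Organoids given 4-hydroxytamoxifen (4OHT) for 24 h, which the labels call Apc-deficient, were collected at day 6 and at day 4, and untreated organoids at the same days. Each treatment on each day is 1 array, which gives 4 groups of 1 and no replicates. All groups carry the floxed alleles, no group received 4OHT without them, and neither the Cre driver nor the number of cultures or animals behind an array is given in the sources used here.

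The 26S proteasome degrades proteins that carry ubiquitin chains. Its core particle is a barrel of stacked rings. The outer alpha rings gate the entry, and the inner beta rings hold the proteolytic sites. The regulatory particle caps the barrel. The ATPases of its base unfold and thread substrates, while its lid removes the ubiquitin chain. Other caps, such as the activators of the Psme family, can open the barrel in its place. The complex is present in all cells, and its subunit genes are known to be induced in concert by the factor Nfe2l1 when the proteasome is inhibited. In the Wnt pathway, the proteasome degrades beta-catenin once the complex built on Apc has marked it.

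Promoter windows (250 bases before to 50 after the annotated start) were taken from RefSeq on build GRCm38.p6 and matched 34 of the 41 genes, among them 25 of the 31 core and regulatory particle genes. A set of 4 motifs was searched on both strands of these windows. The antioxidant response element core TGACNNNGC, bound by the Nfe2l1 and Nfe2l2 factors, stood in 4 of the 25 windows (16%), against 12.47% of all 27025 windows. The NF-Y box CCAAT stood in 10 (40%), against 37.92% of all. The E-box CACGTG, bound by Myc and its relatives, stood in 1, Psma4 (4%), against 7.241% of all. The TCF/LEF core CTTTGAT, bound by the factors that act with beta-catenin, stood in 1, Psmd4 (4%), against 3.722% of all. The match in Psmd4 was the only one of the 25 windows that overlapped a match of another motif (an NF-Y box). The 250 bases before the start of 4 genes are given 5′ to 3′ on the gene's own strand, with matches to TGACNNNGC in capitals. Psmb5 and Psmb6 are shown because they encode 2 of the 3 active-site subunits. Psma5 and Psmd12 had the largest day terms of the core and of the regulatory particle.
Psmb5, chr14:54617996-54618245, minus strand: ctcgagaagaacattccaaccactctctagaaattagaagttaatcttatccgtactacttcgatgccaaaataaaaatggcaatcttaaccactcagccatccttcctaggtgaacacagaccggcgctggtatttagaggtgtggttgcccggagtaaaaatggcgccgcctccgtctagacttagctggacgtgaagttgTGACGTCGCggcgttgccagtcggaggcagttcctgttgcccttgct
Psmb6, chr11:70525107-70525356, plus strand: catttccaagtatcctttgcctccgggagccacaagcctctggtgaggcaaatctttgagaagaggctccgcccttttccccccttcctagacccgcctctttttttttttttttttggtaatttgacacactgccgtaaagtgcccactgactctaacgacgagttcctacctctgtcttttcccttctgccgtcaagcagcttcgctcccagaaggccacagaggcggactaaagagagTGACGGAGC
Psma5, chr3:108256676-108256925, plus strand: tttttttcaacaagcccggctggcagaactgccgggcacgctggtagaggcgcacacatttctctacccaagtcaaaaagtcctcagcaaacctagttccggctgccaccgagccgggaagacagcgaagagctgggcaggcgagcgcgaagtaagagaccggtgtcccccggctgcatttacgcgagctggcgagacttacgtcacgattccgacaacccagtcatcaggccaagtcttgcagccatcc
Psmd12, chr11:107479278-107479527, plus strand: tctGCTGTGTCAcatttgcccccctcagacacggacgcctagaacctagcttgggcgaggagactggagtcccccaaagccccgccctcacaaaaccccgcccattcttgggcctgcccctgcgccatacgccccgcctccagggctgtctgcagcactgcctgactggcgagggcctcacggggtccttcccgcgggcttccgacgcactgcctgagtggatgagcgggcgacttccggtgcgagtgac
The match began at position -47 of the start in Psmb5, at -9 in Psmb6 and, on the opposite strand, at -247 in Psmd12. None of the 4 motifs had a match in the 250 bases of Psma5.

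The organoid label was checked against marker genes. All 8 epithelial markers, among them Epcam and the keratin genes Krt8 and Krt18, lay past the level filter, with intensities of 36.5 to 9544 over the arrays. Their sum was 25401 with 4OHT and 26521 in untreated organoids at day 6, and 17635 with 4OHT and 14776 in untreated organoids at day 4. The 15 markers of fibroblasts, muscle, endothelium and immune cells ranged from 5.91 to 59.4. Their summed intensity was 237.2 with 4OHT and 237.02 in untreated organoids at day 6, and 382 with 4OHT and 411 in untreated organoids at day 4. The 2 arrays of a day had nearly the same median (19.5 with 4OHT and 19.3 untreated at day 6, 21.9 with 4OHT and 22.0 untreated at day 4). The 95th percentile was 472 with 4OHT and 518 untreated at day 6, and 335 with 4OHT and 314 untreated at day 4. The sources used here do not say how the arrays of one day were scaled to those of the other. The 3′ probe set of the control gene Actb exceeded its 5′ probe set by more with 4OHT, the gap being 0.62 wider at day 6 and 0.94 wider at day 4 (log2). That 3′ excess was smaller at day 6 than at day 4, the difference being -1.56 with 4OHT and -1.24 in untreated organoids. The part of either shift in the proteasome values was not tested. Apc was read higher with 4OHT on its brightest probe set, by 0.68 at day 6 and 0.77 at day 4, without passing the test (adjusted p = 0.0773, limma with Benjamini-Hochberg adjustment). These probe sets read the 3′ end, and the deleted part of the gene is not given, so Apc checks nothing here.

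Comparing 4OHT-treated with untreated organoids asked whether proteasome genes changed after induced recombination of Apc. None of the 39 tested genes passed limma's test over both days, which called 3.22% of all 13192 genes (0.970% rose, 2.25% fell). At an unadjusted p under 0.05 there were 2 of the 39, the core genes Psma1 and Psmb2, beside 13.9% of all genes. None of the 39 was 2-fold higher or lower with 4OHT on either day. Of all genes, 3.85% passed 2-fold in either direction at day 6 and 2.22% at day 4. At 1.5-fold, Psmb5 and Psmb7 were lower at day 6 (8.76% of all genes) and none was higher (4.74%). At day 4, Psmd9, Psmc3 and Psmb6 were higher (7.87% of all genes) and Psma1 was lower (5.62%). Differences below are 4OHT minus untreated on the log2(intensity + 16) scale unless another is named. Each difference of 1 day sets 1 array against 1 and has no error of its own. The standard errors are those of the test over both days. In such bulk samples a lower value can come from fewer cells of a type or from less RNA per cell, and these cannot be told apart.

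**Figure D1:**
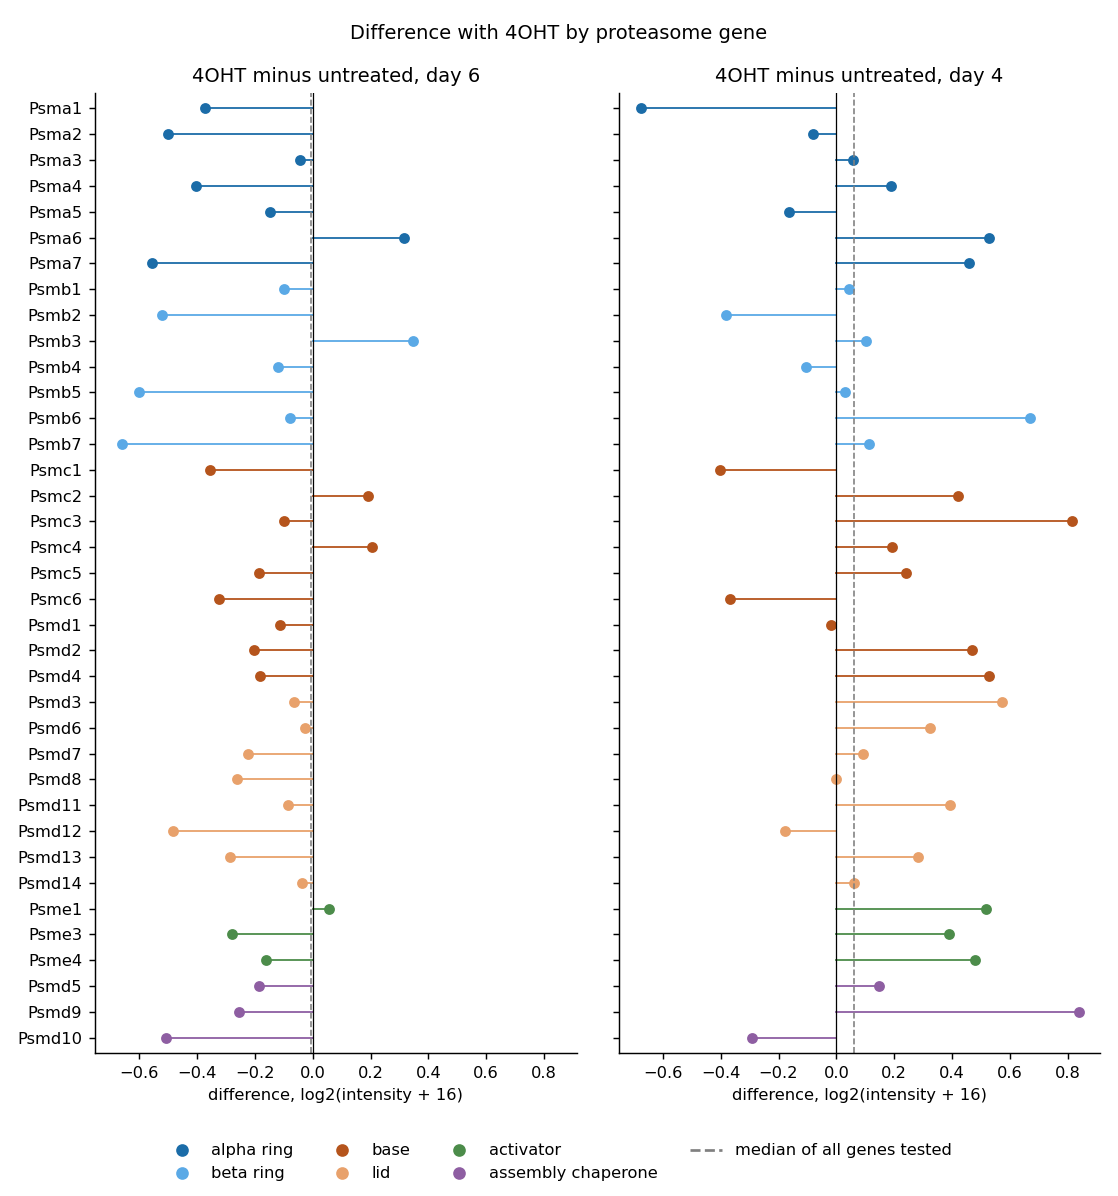
Difference of each subunit, activator and chaperone gene, 4OHT minus untreated, on the log2(intensity + 16) scale, at day 6 (left) and day 4 (right), 1 array per group. Points are genes, coloured by their place in the complex, and the dashed line is the median of all genes tested (-0.0044 at day 6 and 0.06 at day 4). At day 6, 27 of the 31 core and regulatory particle genes lie left of 0, and at day 4, 21 lie right of it. After quantile normalization, which is not drawn, 16 lay below 0 at day 6 and 18 above 0 at day 4.

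At day 6 the differences were mostly below 0, and at day 4 mostly above it. At day 6 the difference with 4OHT was below 0 for 12 of 14 core genes and 15 of 17 regulatory particle genes, beside 50.5% of all genes. At day 4 it was above 0 for 9 of 14 core genes and 12 of 17 regulatory particle genes, beside 56.7% of all genes. The median difference of the core genes was -0.26 at day 6 and 0.05 at day 4. That of the regulatory particle genes was -0.18 at day 6 and 0.24 at day 4. The median of all genes was -0.0044 at day 6 and 0.06 at day 4. Of the 3298 brightest genes, 54.0% were below 0 at day 6 and 61.9% above 0 at day 4. Their median was -0.05 at day 6 and 0.10 at day 4. The counts of proteasome genes moved with the scaling of the arrays. After quantile normalization 7 of 14 core and 9 of 17 regulatory particle genes were below 0 at day 6, with medians of -0.12 in the core and -0.03 in the regulatory particle. At day 4 that scaling left 7 of 14 core and 11 of 17 regulatory particle genes above 0, and the core median was -0.012.

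Set against the regulatory particle, the core median with 4OHT was lower by little on both days, at -0.08 at day 6 and -0.19 at day 4. The interquartile range was 0.43 over the core genes and 0.20 over the regulatory particle genes at day 6, and 0.27 over the core and 0.42 over the regulatory particle genes at day 4. The gap between the particles was smaller than the spread among the genes of either particle on both days. No test was made of it, since genes of a complex are not replicates.

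Within the alpha ring, whose subunits gate the core, 6 of 7 genes were below 0 at day 6 (4 of 7 after quantile normalization) and 4 of 7 above 0 at day 4. Psma1 had an intensity of 376 with 4OHT and 491 in untreated organoids at day 6, and of 124 with 4OHT and 208 in untreated organoids at day 4. It was lower with 4OHT on both days, at -0.37 at day 6 and -0.68 at day 4, and its fitted difference of -0.52 ± 0.21 (SE) had the smallest adjusted p of all proteasome genes, 0.260. The other Psma1 probe set past the filter differed by 0.19 at day 6 and -0.20 at day 4, and the mean of both gave a fitted -0.26 ± 0.19. Psma6 had 1593 with 4OHT and 1277 in untreated organoids at day 6, and 1518 with 4OHT and 1047 in untreated organoids at day 4. Psma6 was thus higher with 4OHT on both days, by 0.32 at day 6 and 0.53 at day 4, without passing (0.42 ± 0.21, adjusted p = 0.395). That value comes from a probe set of the _x_at kind, which may bind other transcripts too. The plain probe set of Psma6 gave the opposite direction, -0.45 at day 6 and -0.21 at day 4.

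Psma7 showed the largest change between the days in the core. Its intensity was 675 with 4OHT and 1000.0 in untreated organoids at day 6, and 433 with 4OHT and 310 in untreated organoids at day 4. The untreated array was the higher one at day 6 and the 4OHT array at day 4, the difference being -0.56 at day 6 and 0.46 at day 4, with a fitted difference of -0.05 ± 0.24. Its other probe set was below 0 on both days, at -0.47 at day 6 and -0.05 at day 4. The other alpha subunit genes (Psma2, Psma3, Psma4 and Psma5) differed by -0.50 to -0.05 at day 6 and by -0.16 to 0.19 at day 4.

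In the beta ring, Psmb5, Psmb6 and Psmb7 encode the subunits that cut after hydrophobic, acidic and basic residues. Psmb5, the target of most proteasome inhibitor drugs, had 502 with 4OHT and 769 in untreated organoids at day 6, and 247 with 4OHT and 242 in untreated organoids at day 4. Its difference was -0.60 at day 6 and 0.03 at day 4 (fitted -0.29 ± 0.22, adjusted p = 0.654). Psmb6 had 697 with 4OHT and 736 in untreated organoids at day 6, and 656 with 4OHT and 406 in untreated organoids at day 4. Here day 4 held the larger difference, 0.67, against -0.08 at day 6. Psmb7 had 51.3 with 4OHT and 90.3 in untreated organoids at day 6, and 48.9 with 4OHT and 44.0 in untreated organoids at day 4 (a difference of -0.66 at day 6 and 0.11 at day 4). All 3 active-site genes were thus lower with 4OHT at day 6 and higher at day 4 on the deposited scale, by unequal amounts. That pattern was shown by 24.5% of all genes. None of the 3 passed limma's test, and their adjusted p ranged from 0.646 to 0.686. Of the 7 beta ring genes, 6 were below 0 at day 6 and 5 above 0 at day 4. After quantile normalization 3 of 7 were below 0 at day 6 and 3 of 7 above 0 at day 4.

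Of the beta subunit genes without a proteolytic site, Psmb2 had the lowest fitted difference with 4OHT. It had 333 with 4OHT and 484 in untreated organoids at day 6, and 172 with 4OHT and 228 in untreated organoids at day 4. The differences of -0.52 at day 6 and -0.38 at day 4 gave a fitted -0.45 ± 0.21 (adjusted p = 0.348). Psmb3 had 1377 with 4OHT and 1081 in untreated organoids at day 6, and 2044 with 4OHT and 1905 in untreated organoids at day 4. It was higher with 4OHT (0.35 at day 6 and 0.10 at day 4), while its other probe set differed by -0.28 at day 6 and -0.02 at day 4. Psmb1 and Psmb4 lay close to 0 on both days, Psmb1 at -0.10 at day 6 and 0.04 at day 4, and Psmb4 at -0.12 at day 6 and -0.10 at day 4.

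The base of the regulatory particle holds the ATPases Psmc1 to Psmc6. Psmc1 had 245 with 4OHT and 318 in untreated organoids at day 6, and 166 with 4OHT and 224 in untreated organoids at day 4, differences of -0.35 at day 6 and -0.40 at day 4. Psmc6 had 477 with 4OHT and 601 in untreated organoids at day 6, and 226 with 4OHT and 297 in untreated organoids at day 4, differences of -0.32 at day 6 and -0.37 at day 4. On these brightest probe sets both were lower with 4OHT to nearly the same extent on each day. Neither passed limma's test (adjusted p = 0.460 for Psmc1 and 0.515 for Psmc6). The other Psmc6 probe sets past the filter were also below 0. A dim plain one gave -0.75 at day 6 and -0.25 at day 4, and an _s_at one -0.16 at day 6 and -0.13 at day 4. Psmc4 had 1238 with 4OHT and 1071 in untreated organoids at day 6, and 937 with 4OHT and 818 in untreated organoids at day 4. It was higher with 4OHT at day 6, by 0.21, and at day 4, by 0.19 (fitted 0.20 ± 0.21), while its other probe set gave -0.04 at day 6 and 0.21 at day 4. Psmc2 had 1275 with 4OHT and 1115 in untreated organoids at day 6, and 1367 with 4OHT and 1017 in untreated organoids at day 4. Its differences of 0.19 at day 6 and 0.42 at day 4 come from an _x_at probe set, and its plain probe set gave -0.51 at day 6 and 0.33 at day 4.

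Psmc3, an ATPase whose tail docks into the alpha ring, changed most between the days among regulatory particle genes. It had 688 with 4OHT and 738 in untreated organoids at day 6, and 521 with 4OHT and 289 in untreated organoids at day 4. The difference was -0.10 at day 6 and 0.81 at day 4 (fitted 0.36 ± 0.24, adjusted p = 0.568). The sixth ATPase gene, Psmc5, differed by -0.19 at day 6 and 0.24 at day 4. Of the scaffold genes of the base, Psmd1 differed by -0.11 at day 6 and -0.02 at day 4. Psmd2 differed by -0.20 at day 6 and 0.47 at day 4. Psmd4, which encodes a receptor for ubiquitin chains, differed by -0.18 at day 6 and 0.53 at day 4.

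All 8 lid genes were below 0 with 4OHT at day 6 on the deposited scale, but 4 of 8 after quantile normalization, and 6 of 8 were above 0 at day 4 (5 of 8 after it). Psmd14, the deubiquitinase that frees the chain from the substrate, differed little on either day. It had 826 with 4OHT and 848 in untreated organoids at day 6, and 459 with 4OHT and 439 in untreated organoids at day 4. Its differences of -0.04 at day 6 and 0.06 at day 4 gave a fitted 0.01 ± 0.21. Psmd12, a structural lid subunit, had 312 with 4OHT and 443 in untreated organoids at day 6, and 115 with 4OHT and 132 in untreated organoids at day 4. It was the lowest lid gene on both days, at -0.48 at day 6 and -0.18 at day 4, without passing (-0.33 ± 0.21, adjusted p = 0.548). The other lid genes (Psmd3, Psmd6, Psmd7, Psmd8, Psmd11 and Psmd13) differed by -0.29 to -0.03 at day 6. At day 4 they differed by -0.0012 to 0.57, the highest being Psmd3.

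Chaperones that help to build the base, and the activators, followed the same signs with exceptions. Psmd9 had 57.4 with 4OHT and 71.6 in untreated organoids at day 6, and 85.3 with 4OHT and 40.7 in untreated organoids at day 4. Its differences of -0.25 at day 6 and 0.84 at day 4 were the farthest apart of all proteasome genes on their brightest probe sets. On the other Psmd9 probe sets past the filter the day 6 difference was the higher one. The values were -0.08 at day 6 and -0.31 at day 4 in one, and 0.21 at day 6 and -0.07 at day 4 in the other. Psmd10, the chaperone also called gankyrin, had 108 with 4OHT and 160 in untreated organoids at day 6, and 61.2 with 4OHT and 78.4 in untreated organoids at day 4. It was lower with 4OHT on both days, at -0.51 at day 6 and -0.29 at day 4 (adjusted p = 0.432). Psmd5 differed by -0.18 at day 6 and 0.15 at day 4. Psme1, a subunit of the interferon-inducible activator, had 596 with 4OHT and 572 in untreated organoids at day 6, and 313 with 4OHT and 214 in untreated organoids at day 4. It was the one activator gene above 0 on both days, at 0.06 at day 6 and 0.52 at day 4.

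Psme3, the nuclear member of that family, had 79.7 with 4OHT and 100.1 in untreated organoids at day 6, and 110 with 4OHT and 80.4 in untreated organoids at day 4. Psme4, an activator linked to histone turnover, had 680 with 4OHT and 761 in untreated organoids at day 6, and 330 with 4OHT and 232 in untreated organoids at day 4. Both were lower with 4OHT at day 6 (-0.28 for Psme3 and -0.16 for Psme4) and higher at day 4 (0.39 for Psme3 and 0.48 for Psme4) on their brightest probe sets, that of Psme4 being of the _s_at kind. The other Psme3 probe set past the filter gave 0.09 at day 6 and -0.02 at day 4. Over the other 4 of Psme4 the day 6 values spanned -0.53 to 0.06, and the day 4 values -0.37 to 0.0003. Psma8, the subunit gene of testis, had 7.09 with 4OHT and 6.04 in untreated organoids at day 6, and 7.71 with 4OHT and 7.05 in untreated organoids at day 4. Those values lay under the level filter, so its differences of 0.07 at day 6 and 0.04 at day 4 are given without a test. The partner protein gene Psmc3ip differed by 0.21 at day 6 and -0.17 at day 4, and Psme3ip1 by -0.01 at day 6 and 0.28 at day 4.

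**Figure D2:**
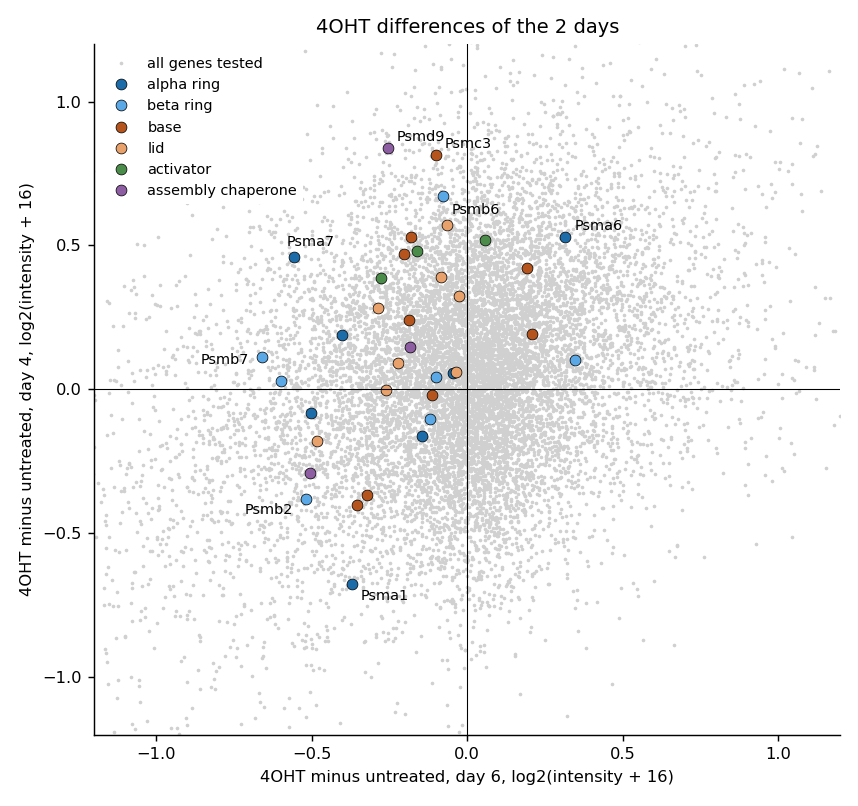
Difference of each gene with 4OHT at day 6 (horizontal) against day 4 (vertical), both on the log2(intensity + 16) scale, 1 array per group. Grey points are all genes tested that fall in the plotted range, and coloured points are subunit, activator and chaperone genes. The upper left region, lower with 4OHT at day 6 and higher at day 4, holds Psma7, Psmc3, Psmd9 and Psmb7, while Psma1 and Psmb2 lie lower left and Psma6 upper right.

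By sign on both days, 22 of the 39 genes were lower with 4OHT at day 6 and higher at day 4, a pattern of 24.5% of all genes. A further 11 were lower on both days (26.0% of all genes), 5 were higher on both (32.0%), and 1, Psmc3ip, was higher at day 6 and lower at day 4 (17.1%). These counts hold for the deposited scale. There, 27 of the 31 core and regulatory particle genes were below 0 at day 6 and 21 above 0 at day 4. After quantile normalization 16 of the 31 were below 0 at day 6 and 18 above 0 at day 4. The pattern over both days was not counted on that scale. With its sign kept, the difference at day 6 lay below that at day 4 for 32 of 39. This held for 57.7% of all genes and 63.6% of the 3298 brightest. It does not mean a smaller effect at day 6, as Psmb5 had -0.60 at day 6 and 0.03 at day 4. That gap between the days was not tested, since 4 arrays leave no error for it. For the spiked hybridization controls, which are added to each sample in fixed amount, the 4OHT difference was 0.91 at day 6 and -0.38 at day 4 (log2 intensity). The poly-A controls differed by 1.23 at day 6 and -0.41 at day 4. These controls and most proteasome genes thus had opposite signs on both days, and their part in the result was not tested.

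Comparing day 6 with day 4 asked how the genes changed over time in culture. Limma's day term, with 4OHT as the other term, called 25 of the 39 proteasome genes higher at day 6 and 1 lower, beside 35.1% and 18.8% of all genes. The 25 that rose were 10 core genes, 11 regulatory particle genes, 2 activators (Psme1 and Psme4) and 2 chaperones (Psmd5 and Psmd10). They amount to 64.1% of the 39, where 51.4% of the 3298 brightest genes rose and 13.8% of them fell. Both day 6 arrays exceeded both day 4 arrays for 30 of the 39, beside 42.9% of all genes, and lay below both for 1 (Psmb3), beside 35.4%. The scaling of the days moved this count. After quantile normalization 9 of the 39 rose (23.1%), beside 21.0% of all genes, and 3 fell, beside 24.5%. All 9 were among the 25, and they were Psma1, Psma2, Psma5, Psmb1, Psmb5, Psmd12, Psmd13, Psme1 and Psme4. The 3 that fell were Psmb3, Psmd3 and Psmc3ip. The hybridization controls were lower at day 6 than at day 4, at -1.07 with 4OHT and -2.36 in untreated organoids, and the poly-A controls at -0.98 with 4OHT and -2.62 in untreated organoids (log2 intensity). Most proteasome genes went the other way, and the part of this shift in the result was not tested. Of the 8 epithelial markers 6 rose at day 6 as deposited, beside 35.1% of all genes, and none fell. Their median, day 6 minus day 4, was 0.70 with 4OHT and 1.22 in untreated organoids. Whether the proteasome values followed the epithelial share of the samples was not tested.

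**Figure D3:**
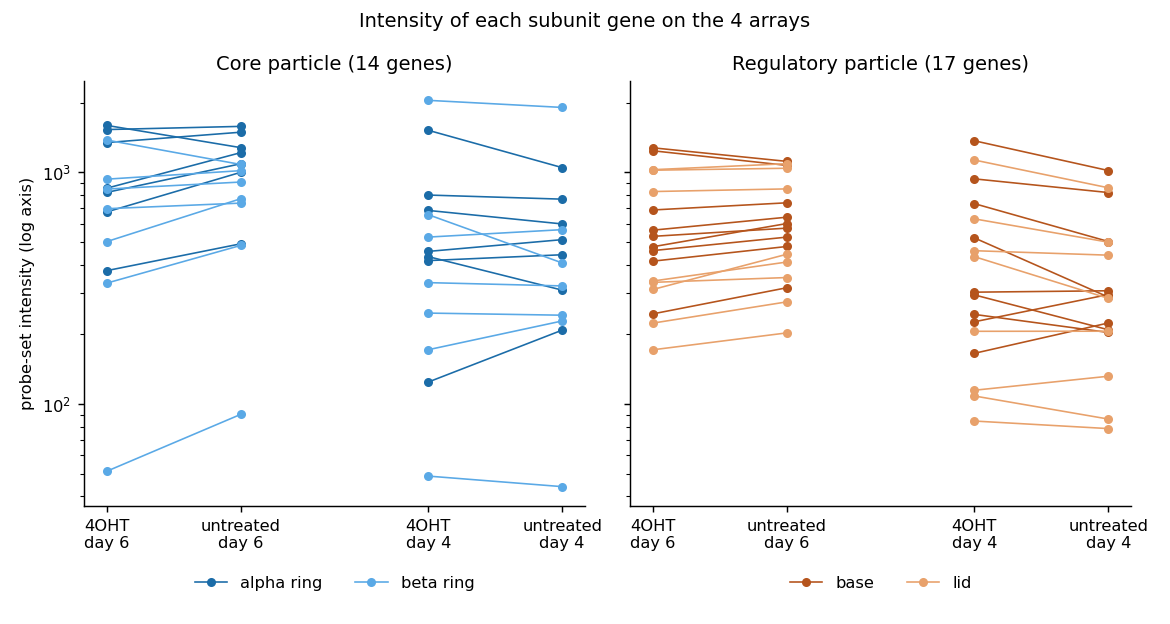
Probe-set intensity (log axis) of the 14 core particle genes (left) and 17 regulatory particle genes (right) on the 4 arrays. Each line joins the 4OHT and the untreated array of 1 day for 1 gene, coloured by ring or by base and lid, and levels are not to be compared between genes. Most genes sit higher at day 6 than at day 4, while the topmost beta ring gene at day 4 is Psmb3, with 2044 with 4OHT and 1905 untreated.

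The median difference of the core genes, day 6 minus day 4, was 0.85 with 4OHT and 1.03 in untreated organoids. For the regulatory particle genes it was 0.68 with 4OHT and 0.94 in untreated organoids. The median of all genes was 0.04 with 4OHT and 0.16 in untreated organoids, and that of the 3298 brightest genes 0.42 with 4OHT and 0.67 in untreated organoids. Core exceeded regulatory particle by 0.17 with 4OHT and by 0.09 in untreated organoids, less than the interquartile range of either set (0.48 to 0.88). With the mean of all probe sets that gap was 0.42 with 4OHT and -0.025 in untreated organoids, and without _x_at and _s_at probe sets it was 0.23 in untreated organoids. After quantile normalization the core medians were 0.40 with 4OHT and 0.44 in untreated organoids and those of the regulatory particle 0.21 with 4OHT and 0.27 in untreated organoids. The median of all genes then lay at -0.15 with 4OHT and -0.13 in untreated organoids. At 2-fold, 4 of 14 core and 2 of 17 regulatory particle genes were higher at day 6 with 4OHT, beside 16.4% of all genes, and none was lower, beside 2.69%. In untreated organoids it was 8 of 14 core and 7 of 17 regulatory particle genes, beside 24.1% of all genes, and again none lower, beside 5.29%. After quantile normalization 2 of 14 core and 0 of 17 regulatory particle genes were 2-fold higher with 4OHT, beside 9.48% of all genes, and 0 of 14 and 0 of 17 in untreated organoids, beside 12.0%. The comparisons of the days share their arrays with the 4OHT comparisons above, so the values are given side by side only.

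In the alpha ring 6 of 7 genes rose at day 6, beside 35.1% of all genes and 51.4% of the brightest. After quantile normalization 3 of 7 did (Psma1, Psma2 and Psma5), beside 21.0% of all genes. Psma5, which had the largest rise in the core, had 1344 at day 6 and 456 at day 4 with 4OHT, and 1489 at day 6 and 512 at day 4 in untreated organoids. The rise of 1.52 ± 0.21 (SE, adjusted p = 2.3e-05) was nearly the same with 4OHT (2.88-fold) and without (2.85-fold). Psma1 rose by 1.33 ± 0.21 (adjusted p = 8.98e-05), 2.79-fold with 4OHT and 2.26-fold in untreated organoids. Psma7 rose by 1.13 ± 0.24, by 0.62 with 4OHT and by 1.64 in untreated organoids, and did not pass after quantile normalization (0.57 ± 0.24, adjusted p = 0.0660). Psma6 did not pass on its _x_at probe set (0.18 ± 0.21), while its plain probe set was higher at day 6 by 1.04 with 4OHT and 1.29 in untreated organoids.

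Of the 7 beta ring genes, Psmb1, Psmb2, Psmb4 and Psmb5 rose, beside 35.1% of all genes and 51.4% of the brightest. After quantile normalization only Psmb1 and Psmb5 did, beside 21.0% of all genes. Psmb1 had 847 at day 6 and 334 at day 4 with 4OHT, and 908 at day 6 and 323 at day 4 in untreated organoids, a rise of 1.37 ± 0.21. Among the active-site genes Psmb5 rose by 1.29 ± 0.22 (adjusted p = 0.000177). Psmb6 (0.46 ± 0.23, adjusted p = 0.0969) and Psmb7 (0.44 ± 0.23, adjusted p = 0.112) were higher at day 6 without passing, with differences of 0.08 for Psmb6 and 0.05 for Psmb7 with 4OHT, and of 0.83 for both in untreated organoids. Psmb3 was the only proteasome gene that fell as deposited, by 0.69 ± 0.21 (adjusted p = 0.0124). Its other probe set went the other way, higher at day 6 by 0.81 with 4OHT and 1.08 in untreated organoids, and the mean of both probe sets did not pass.

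Within the regulatory particle 5 of 9 base genes and 6 of 8 lid genes rose, beside 35.1% of all genes. After quantile normalization 0 of 9 base genes and 2 of 8 lid genes (Psmd12 and Psmd13) did, beside 21.0%, and Psmd3 fell. Psmd12 had 312 at day 6 and 115 at day 4 with 4OHT, and 443 at day 6 and 132 at day 4 in untreated organoids. It rose by 1.48 ± 0.21 (adjusted p = 3.41e-05), 2.51-fold with 4OHT and 3.11-fold in untreated organoids. On the deposited scale the ATPase genes Psmc3, Psmc5 and Psmc6 rose by 0.85 to 1.09, and Psmc1 (0.50 ± 0.21, adjusted p = 0.0526), Psmc2 and Psmc4 did not pass. The deubiquitinase gene Psmd14 rose by 0.88 ± 0.21, against 0.33 ± 0.21 after quantile normalization (adjusted p = 0.205). The ubiquitin receptor gene Psmd4 had 563 at day 6 and 732 at day 4 with 4OHT, and 640 at day 6 and 503 at day 4 in untreated organoids, so that it was lower at day 6, at -0.37 with 4OHT and higher by 0.34 in untreated organoids. Psmd3 likewise differed by -0.35 with 4OHT and 0.28 in untreated organoids.

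**Figure D4:**
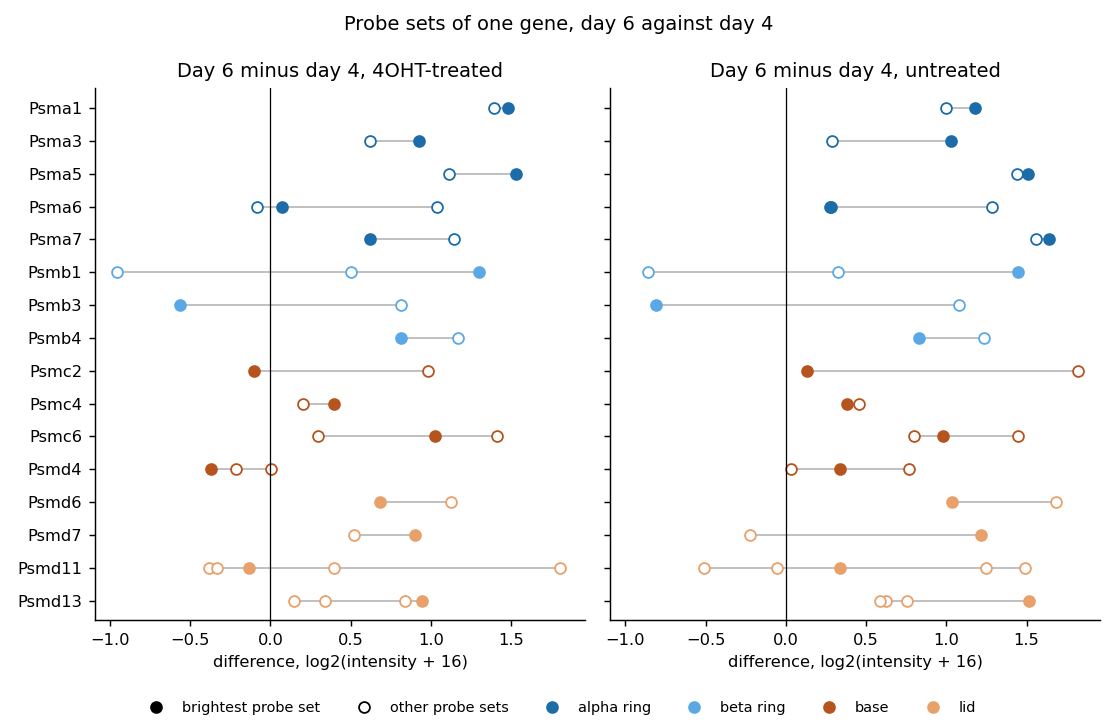
Difference of every probe set past the level filter, day 6 minus day 4 on the log2(intensity + 16) scale, for the core and regulatory particle genes that have several, with 4OHT (left) and untreated (right). Filled points are the brightest probe sets, which carry the values in the text, and open points the others. Probe sets of Psma5 lie between 1.12 and 1.53, whereas those of Psmb1, Psmb3 and Psmd11 lie on both sides of 0.

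How far 1 probe set stands for its gene was checked on the 20 genes with several probe sets past the filter. For the 4OHT difference all probe sets of a gene had the same sign in 7 of 20 genes at day 6 and in 8 of 20 at day 4. For day 6 against day 4 it was 13 of 20 in each arm. The widest range over probe sets of 1 gene, day 6 minus day 4, was that of Psmb1, -0.95 to 1.30 with 4OHT and -0.86 to 1.44 in untreated organoids. Psmd11, read by 5 probe sets past the filter, ranged from -0.38 to 1.80 with 4OHT and from -0.51 to 1.49 in untreated organoids. The 6 _x_at probe sets of core and regulatory particle genes had medians of 0.29 with 4OHT and 0.30 in untreated organoids. The 31 plain probe sets had medians of 0.52 with 4OHT and 0.94 in untreated organoids.

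Genes around the proteasome were described from 5 further lists, of which Paaf1, Adrm1, Ddi2 and 6 ubiquitin and delivery genes are not analysed here. None of their tested members passed limma's test for 4OHT, which called 3.22% of all genes. The unadjusted p was under 0.05 in Zfand5 (1 of 9 proteasome-associated genes), Ubqln4 (1 of 7 delivery genes) and Nfe2l2 (1 of 6 regulators). The remaining lists had none, and 13.9% of all genes had an unadjusted p that low. The 5 assembly factors measured (Pomp and Psmg1 to Psmg4, which build the core) had median differences with 4OHT of -0.05 at day 6 and 0.29 at day 4, and 4 of 5 rose at day 6 against day 4, beside 35.1% of all genes and 51.4% of the brightest. Those 4 were Pomp and Psmg1 to Psmg3, by 0.63 to 2.05, the most in Psmg2. After quantile normalization only Psmg1 and Psmg2 rose, beside 21.0% of all genes. Psmg4 alone had 1 direction on both days, at 0.04 at day 6 and 0.82 at day 4. The immunoproteasome genes Psmb8, Psmb9 and Psmb10, which replace the active-site subunits after interferon, had medians of -0.25 at day 6 and 0.24 at day 4. Only Psmb10 of the 3 rose at day 6 against day 4, beside 35.1% of all genes, and none did after quantile normalization, beside 21.0%. Psmb10 had 236 with 4OHT and 283 in untreated organoids at day 6, and 190 with 4OHT and 122 in untreated organoids at day 4.

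Of 9 proteasome-associated proteins, medians were -0.13 at day 6 and -0.05 at day 4, and 4 rose and 2 fell at day 6 against day 4, where 35.1% of all genes rose and 18.8% fell. After quantile normalization 1 rose (Ecpas) and 3 fell (Ube3c, Usp14 and Zfand5), beside 21.0% and 24.5% of all genes. As deposited, Uchl5, a deubiquitinase of the base, Ecpas, Sem1 and Akirin2 rose, while the deubiquitinase gene Usp14 and Zfand5 fell. Zfand5, which encodes a protein that stimulates the 26S particle, was higher with 4OHT at day 6, by 0.60, and at day 4, by 0.45 (fitted 0.53 ± 0.21, adjusted p = 0.248). Sem1, a small lid subunit outside the naming rule, was lower with 4OHT, at -0.44 at day 6 and -0.24 at day 4. The 7 measured genes of ubiquitin and substrate delivery had medians of -0.27 at day 6 and 0.28 at day 4. At day 6 against day 4, 3 of the 7 rose, beside 35.1% of all genes and 51.4% of the brightest. These were the shuttle factor genes Rad23b, Ubqln1 and Ubqln2. Of them Ubqln1 and Ubqln2 also passed after quantile normalization, where 21.0% of all genes rose. A further shuttle factor gene Ubqln4 was higher with 4OHT at day 6, by 0.30, and at day 4, by 0.80. Vcp, the ATPase that extracts ubiquitylated proteins, was higher by 0.24 at day 6 and 0.65 at day 4.

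Among 7 measured regulators of proteasome gene transcription, 6 were tested. Nfe2l2, which encodes the oxidative stress factor Nrf2, had 515 with 4OHT and 901 in untreated organoids at day 6, and 149 with 4OHT and 254 in untreated organoids at day 4. It was lower with 4OHT on both days, at -0.79 at day 6 and -0.71 at day 4, and did not pass (-0.75 ± 0.21, adjusted p = 0.0655). Nfe2l1 differed by -0.32 at day 6 and -0.12 at day 4. Mafg, a small partner of both factors, differed by 0.30 at day 6 and 0.53 at day 4. For day 6 against day 4, 3 of the 6 tested regulators rose and 2 fell, beside 35.1% and 18.8% of all genes. After quantile normalization the same 5 passed and Nfe2l1 fell too, where 21.0% of all genes rose and 24.5% fell. Nfe2l2 rose by 1.72 ± 0.21, Ngly1, whose product deglycosylates and so activates the Nfe2l1 protein, by 1.25, and Mafg by 1.18. The small Maf genes Maff and Mafk fell by 0.91 and 0.71.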

How the data were processed

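Expression was measured on 4 arrays, 1 for each group. The authors deposited linear probe-set intensities, 1 per probe set and array. Per the labels' protocols, 100 ng of total RNA was labelled with a 3′ in vitro transcription kit, so probe sets read mostly 3′ ends. Background correction, scaling and summarisation are not given in the sources used here. Precision is limited by there being 1 array per group. Probe sets were named from the platform's annotation, which can be old; 34945 name 1 gene, 932 name several and were left out, as were 64 control probe sets.

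Intensities were moved to log2(intensity + 16), which understates changes of dim genes, and each gene took the probe set with the highest mean of these values. Linear models with terms for 4OHT and for day were fitted to the 4 arrays with limma (version 3.58.1, R 4.3.3), followed by eBayes. P-values were adjusted by Benjamini-Hochberg over 13192 genes, and called under 0.05. It has 1 residual degree of freedom and 15.2 prior ones, so its errors come mostly from a spread pooled over genes and not from replicate cultures. "Rose" and "fell" are used of genes past it. Differences of 1 array against 1 were counted at 2-fold, with no test.

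The members, lists and tests were chosen with earlier results of these data known. Values on every array are given for the 6 members with the largest smaller difference of both days in each direction (5 of those upward are past the filter), the 3 that changed most between days, the active-site genes, Psmd14 and the activators. Alternatives concerned the level filter, probe set, scaling, pseudocount, day term, fold threshold and arrays; a mean over probe sets past the filter was added after seeing the data. Python 3.11.15 was used with numpy 2.4.6, pandas 2.3.3 and, for plots, matplotlib 3.10.9.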

Additional observations from a re-analysis of the deposited data

Results flagged for a closer look

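For 23 proteasome genes the difference with 4OHT had one sign at day 6 and the other at day 4. Each day has 1 array per group, so the gap between the days was not tested for any of them. The values that follow are the difference with 4OHT at day 6 minus that at day 4, on the log2(intensity + 16) scale. Among the core genes the gap was -1.02 in Psma7, -0.77 in Psmb7, -0.75 in Psmb6, -0.63 in Psmb5, -0.59 in Psma4, -0.14 in Psmb1 and -0.10 in Psma3. In the base it was -0.91 in Psmc3, -0.71 in Psmd4, -0.67 in Psmd2 and -0.43 in Psmc5. In the lid it was -0.64 in Psmd3, -0.57 in Psmd13, -0.48 in Psmd11, -0.35 in Psmd6, -0.31 in Psmd7 and -0.099 in Psmd14. Of the chaperones and activators, Psmd9 had -1.09, Psme3 -0.67, Psme4 -0.64 and Psmd5 -0.33. The partner protein genes Psme3ip1 and Psmc3ip had -0.29 and 0.37, the last being the only one above 0. The medians of the particles also had opposite signs on the days, with gaps of -0.31 in the core and -0.42 in the regulatory particle, also not tested. After quantile normalization the core median was -0.12 at day 6 and -0.012 at day 4, below 0 on both days. All probe sets past the level filter had the same sign of the gap in 7 of the 20 genes with several. Some other probe sets past the filter went against the sign given above. Their gaps were 0.74 in Psmd7, 0.33 in Psma3, 0.31 and 0.13 in Psmd11, and 0.31 and 0.32 in Psme4. Further such gaps were 0.24 and 0.28 in Psmd9, 0.17 in Psmb1, 0.11 in Psme3, 0.09 in Psmd13 and -0.92 in Psmc3ip.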

How the results depend on the processing

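Proteasome genes called with 4OHT stayed at 0 in both directions under every alternative run. Over all genes, 128 rose and 297 fell. Those that rose numbered 0 without the day term (no replicate block), with no level filter and at a pseudocount of 64, 62 with the filter on the mean, 84 with the mean of all probe sets, 74 after quantile normalization, 7 with a pseudocount of 1, and 0 to 8 when single arrays were left out. Those that fell numbered 0 without the day term, with no filter and at a pseudocount of 64, 183 with the filter on the mean, 40 with a pseudocount of 1, and 0 to 57 when single arrays were left out. For day 6 against day 4, 2766 genes rose after quantile normalization (4631 as deposited), and 1238 fell with the filter at the 75th percentile and 1182 with a pseudocount of 64 (2474 before). Proteasome genes that rose numbered 9 after quantile normalization (25 before), and those that fell 3 after it and 0 with either mean over probe sets (1 before). At 1.5-fold, 2 proteasome genes were lower with 4OHT at day 6 (Psmb5 and Psmb7), and 3 higher (Psmd9, Psmc3 and Psmb6) and 1 lower (Psma1) at day 4. With a pseudocount of 1, 1 was 2-fold higher at day 4.

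After quantile normalization the core medians were -0.12 with 4OHT at day 6 and -0.012 at day 4, a change of sign, and 0.40 with 4OHT and 0.44 untreated for day 6 against day 4. Those of the regulatory particle were -0.032 with 4OHT at day 6, and 0.21 with 4OHT and 0.27 untreated for day 6 against day 4. Without _x_at and _s_at probe sets the core median was -0.39 with 4OHT at day 6 and 1.21 untreated over the days, and core minus regulatory particle was -0.20 and 0.23. With the mean of all probe sets the regulatory particle had 0.39 with 4OHT over the days, the core 0.84 untreated, and core minus regulatory particle 0.42 with 4OHT and -0.025 untreated, the last a change of sign. The mean of probe sets past the filter gave the regulatory particle 0.57 with 4OHT over the days. Median centring gave 1.14 for the core and 1.05 for the regulatory particle, untreated over the days, where the median of all genes moved to 0.27.

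Single genes changed sign in 31 of 300 recomputed values and not in the other 269. Psma6 (-0.33) and Psmc2 (-0.091) did so without _x_at and _s_at probe sets, and Psme4 there (-0.14), under the mean of all its probe sets (-0.10) and of those past the filter (-0.13). The others came from leaving out 1 array, which sets unequal days against each other with no day term. The fitted difference then spanned -1.26 to 0.22 in Psma1, -0.87 to 0.77 in Psma7, -0.97 to 0.066 in Psmb2, -0.18 to 0.63 in Psmb3, -1.09 to 0.52 in Psmb5, -0.12 to 0.71 in Psmb6, -0.69 to 0.14 in Psmb7, -0.30 to 1.01 in Psmc3, -0.86 to 0.17 in Psmc6, -0.85 to 0.053 in Psmd10, -1.15 to 0.49 in Psmd12, -0.45 to 0.47 in Psmd14, -0.022 to 0.60 in Psmd9, -0.39 to 0.96 in Psme1, -0.14 to 0.25 in Psme3 and -0.66 to 0.98 in Psme4. Except for these shifts by construction, the cause of a change was not tested. The day term sets each 4OHT array beside the untreated array of its day, and the labels give no replicate numbers for any other pairing. Signal near the level filter limits Psmb7, Psmd9 and Psme3, whose intensities lay between 40.7 and 110 on the arrays. Of the immunoproteasome genes, Psmb8 lay at 16.8 to 23.5 and Psmb9 at 29.1 to 41.4.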

Other observations

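A pair of other large complexes was described in the same way, the COP9 signalosome, which shares its architecture with the lid and removes Nedd8 from cullin ubiquitin ligases, and the CCT chaperonin, which folds actin and tubulin. The median difference with 4OHT of the 9 COP9 genes was -0.07 at day 6 and 0.07 at day 4, and that of the 8 CCT genes -0.16 at day 6 and 0.05 at day 4. None of the 17 genes passed limma's test for 4OHT, which called 3.22% of all genes. Cops2 alone had an unadjusted p under 0.05, beside 13.9% of all genes. Cops2 was lower with 4OHT at day 6, at -0.39, and at day 4, at -0.65 (adjusted p = 0.260). Cops5, the catalytic subunit that corresponds to Psmd14 of the lid, was lower, at -0.23 at day 6 and -0.29 at day 4. In the chaperonin, Cct8 was lower, at -0.44 at day 6 and -0.38 at day 4, and Cct3 higher by 0.48 at day 6 and 0.33 at day 4.

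At day 6 against day 4, 7 of 9 COP9 genes and 5 of 8 CCT genes rose and none fell. Of all genes 35.1% rose and 18.8% fell, and of the 3298 brightest genes 51.4% rose and 13.8% fell. After quantile normalization 2 of 9 COP9 genes (Cops4 and Cops5) and 3 of 8 CCT genes (Cct2, Cct6a and Cct8) rose. Cops3 fell, where 21.0% of all genes rose and 24.5% fell. Cops5 rose by 1.55 ± 0.21 and Cct8 by 1.68 ± 0.21 (adjusted p = 1.97e-05 for Cops5 and 9.64e-06 for Cct8). The medians, day 6 minus day 4, were 0.74 with 4OHT and 1.01 in untreated organoids for COP9, and 0.74 with 4OHT and 0.89 in untreated organoids for CCT. Those of the proteasome core were 0.85 with 4OHT and 1.03 in untreated organoids. No test was made of these medians against each other.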
